A study of Homo sapiens with 9 samples.

Results

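The 9 genes described here are ANXA2R, which encodes a cell-surface receptor for annexin A2, together with annexin A2 itself (ANXA2), its binding partner S100A10, and 6 genes of the plasminogen activation system, namely PLAU, PLAUR, PLAT, SERPINE2, SERPINB2 and SERPINB5. They were chosen by gene symbol, as the rows of the count data whose Ensembl identifiers map to these symbols, and they make up 9 of 60617 genes. All 9 passed the filter on low counts and were among the 18532 genes tested. ANXA2R was picked with its values in these libraries already known.

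The measurements came from PC-3, an established human prostate cancer cell line, after 5 days of treatment. Of the 9 RNA-seq libraries, 3 were controls that received the vehicle (sulfuric acid and ethanol in PBS), 3 received 1 µM of decitabine, an inhibitor of DNA methylation, and 3 received the combination treatment of 1 µM of decitabine with 200 µM of S-adenosylmethionine (SAM), the methyl donor of the cell. Libraries of cells given SAM alone were not analysed here. No source used here says whether the 3 libraries of a group came from separate cultures, so the p-values measure only the spread between these samples, which may be technical.

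Plasminogen is cut to the protease plasmin by the urokinase-type activator (uPA, encoded by PLAU) or the tissue-type activator (tPA, encoded by PLAT). Urokinase works at the cell surface when bound to its receptor uPAR (encoded by PLAUR), while the complex of annexin A2 and S100A10 holds plasminogen and the tissue-type activator on the membrane. Some serpins restrain the activators, among them the products of SERPINE2 and SERPINB2. Plasmin at the surface of tumor cells is known for breaking down the matrix around them.

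The libraries held between 21934307 and 22489684 estimated counts. The 50 most abundant genes took 13.08% to 13.82% of them in controls, 9.69% to 10.17% under decitabine and 10.25% to 11.58% under the combination treatment. The 5 epithelial markers KRT8, KRT18, KRT19, EPCAM and CDH1 were all present. Their summed level was taken in CPM (counts relative to the size of the library, scaled by the trimmed mean of M-values, TMM). It was 875 to 956 CPM in controls, 869 to 921 CPM under decitabine and 727 to 867 CPM under the combination treatment. Of these 5 markers, 2 rose and 2 fell in each treatment. Luminal prostate markers, which this line is known to lack, were low but higher in treated cells, with a summed level over 5 markers of 2.18 to 3.06 CPM in controls, 7.82 to 10.6 CPM under decitabine and 6.12 to 7.45 CPM under the combination treatment. KLK3 was at 0 throughout and KLK2 in controls, and the 2 of the 5 that could be tested rose in both treatments. The summed level of 7 blood and stromal markers was 13.2 to 15.3 CPM in controls, 123 to 154 CPM under decitabine and 110 to 132 CPM under the combination treatment. Of these 7 markers, HBB was at 0 in every group and CD3E in controls, and the 5 that could be tested rose in both treatments. The sums of the luminal and of the blood and stromal markers separated treated libraries from controls, as did the levels of most genes described below. The epithelial sum lay below that of controls in every combination library, but overlapped it under decitabine. The part of these marker changes in the differences of the genes below was not tested.

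Since decitabine inhibits the methylation of CG dinucleotides, the 250 bases before the transcription start were read for 4 of the genes. The sequences come from RefSeq (GRCh38.p14), run 5′ to 3′ on the strand of the gene, and carry CG in capitals. They show a gene that fell with both treatments (ANXA2R at chr5:43043248-43043497, minus strand), a gene that rose moderately (S100A10 at chr1:151993860-151994109, minus strand), the gene with the largest rise (SERPINB2 at chr18:63887455-63887704, plus strand) and a serpin of the same chromosome that fell (SERPINB5 at chr18:63476708-63476957, plus strand).
ANXA2R: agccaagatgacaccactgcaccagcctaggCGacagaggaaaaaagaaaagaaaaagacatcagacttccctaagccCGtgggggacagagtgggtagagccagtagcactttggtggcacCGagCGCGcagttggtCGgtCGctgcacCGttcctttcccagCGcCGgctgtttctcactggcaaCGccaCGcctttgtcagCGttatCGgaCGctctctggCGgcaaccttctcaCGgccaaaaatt
S100A10: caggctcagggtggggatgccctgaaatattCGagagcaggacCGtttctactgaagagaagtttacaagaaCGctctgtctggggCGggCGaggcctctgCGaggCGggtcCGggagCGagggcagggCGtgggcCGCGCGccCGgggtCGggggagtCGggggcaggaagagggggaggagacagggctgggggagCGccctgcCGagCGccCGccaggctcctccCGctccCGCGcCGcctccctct
SERPINB2: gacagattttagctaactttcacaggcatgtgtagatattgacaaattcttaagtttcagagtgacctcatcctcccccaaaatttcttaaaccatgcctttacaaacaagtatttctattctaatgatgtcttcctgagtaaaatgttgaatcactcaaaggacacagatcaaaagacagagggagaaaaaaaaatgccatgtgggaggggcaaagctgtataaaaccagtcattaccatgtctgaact
SERPINB5: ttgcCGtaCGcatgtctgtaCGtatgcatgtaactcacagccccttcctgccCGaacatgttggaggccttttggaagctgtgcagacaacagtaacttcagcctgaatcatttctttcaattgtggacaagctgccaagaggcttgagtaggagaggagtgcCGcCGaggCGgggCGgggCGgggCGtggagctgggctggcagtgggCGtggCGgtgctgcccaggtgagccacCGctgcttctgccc

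The S100A10 window held 24 CG, the ANXA2R window shown 17, the SERPINB5 window 13 and the SERPINB2 window 0. Among 35116 windows of this length before human genes the median was 11 CG, 23.7% held at least 24, 39% at least 17, 46.6% at least 13, and 6.06% held none. The dinucleotide CG reads the same on both strands, so a single count covers both. A window was at hand for 8 of the 9 genes, with 18 CG before a second start of ANXA2R, where the window lies over an exon of the gene, 28 before ANXA2, 13 before PLAUR, 4 and 24 before the 2 starts of PLAU, and 6 and 28 before the 2 starts of SERPINE2. The window before ANXA2R covers part of an exon of ANXA2R-AS1, a long noncoding RNA gene on the opposite strand, while those of S100A10, SERPINB2 and SERPINB5 cover no exon of GENCODE release 44. That of SERPINB2 lies between exons of the longer gene model in this annotation. The methylation of these windows was not analysed here.

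In the comparison of decitabine-treated cells with controls, 8 of the 9 genes were DEGs (adjusted p under 0.05, edgeR's quasi-likelihood test), 5 upregulated and 3 downregulated. The same test called 68.8% of all genes tested, 36.3% upregulated and 32.5% downregulated. Under the combination treatment, again 8 of the 9 differed from controls, 5 upregulated and 3 downregulated, where the shares over all genes were 67.2%, 35.9% and 31.3%. Between the treatments 3 of the 9 differed, and ANXA2R, PLAU and PLAT were all lower in the combination treatment. Over all genes 15.7% differed between the treatments, 7.67% in the upward and 8.02% in the downward direction. The median log2 fold change of the 9 genes was 0.42 under decitabine, 0.31 under the combination treatment and -0.11 between the treatments, beside 0.03, 0.05 and 0.00 over all genes tested. Libraries of the 2 groups compared did not overlap for 4 genes higher and 3 lower under decitabine (38.1% and 34.8% of all genes tested), for 5 higher and 3 lower under the combination treatment (38% and 33.6%), and for 0 higher and 3 lower in the combination treatment than under decitabine (17.2% and 16.8%). All comparisons drew on the same 9 libraries, and each pair of them shares a group. In bulk libraries such as these, fewer cells that express a gene and less of its RNA per cell cannot be told apart.

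**Figure D1:**
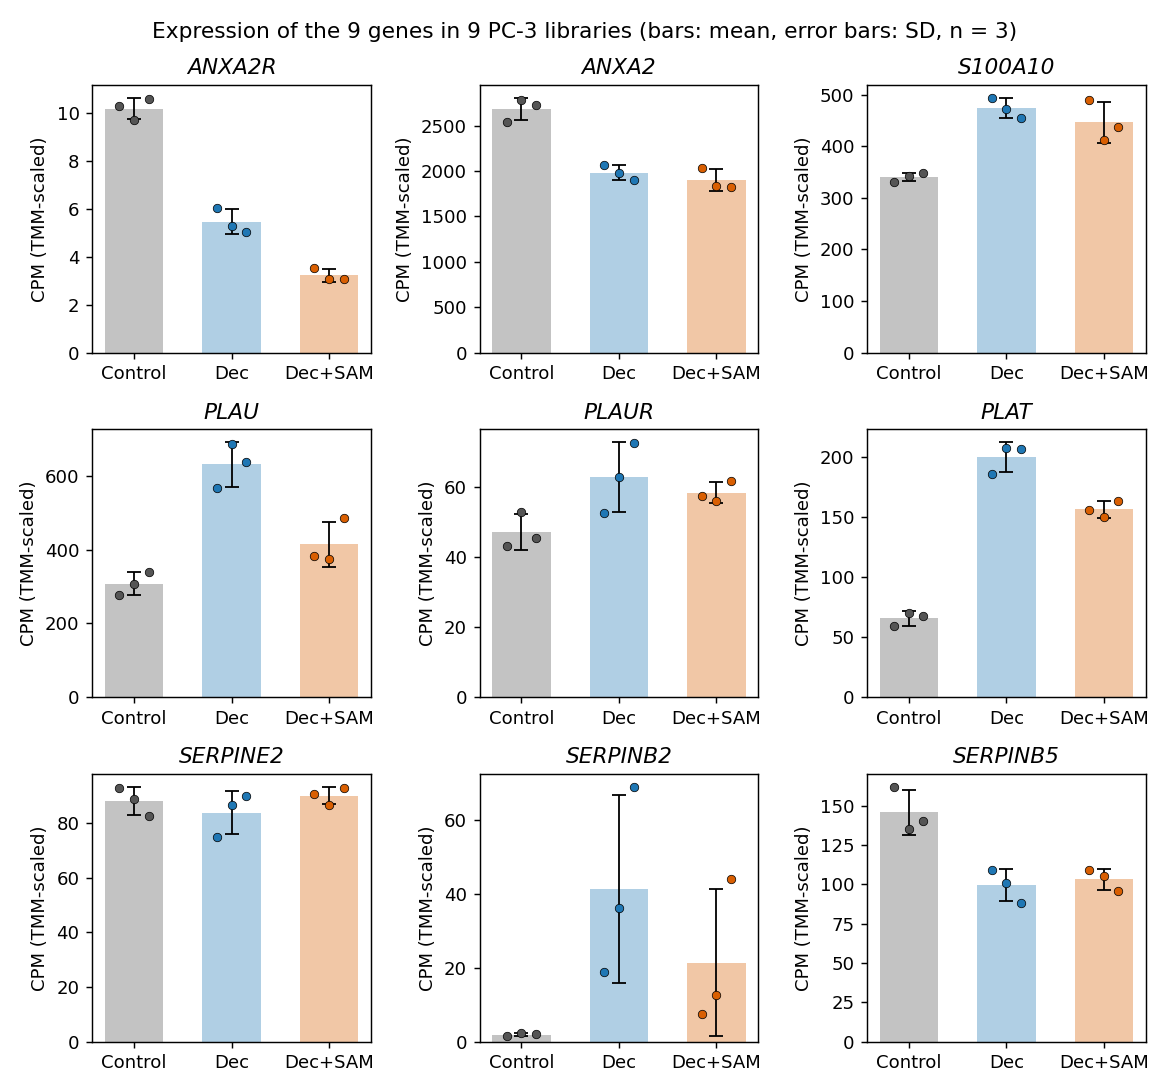
Expression of the 9 genes in CPM (vertical axes, each starting at 0) in the controls, under decitabine and under the combination treatment. Points are libraries, bars are group means and error bars are SD of 3 libraries. The means of ANXA2R step down from 10.2 to 5.47 and 3.22 CPM, while PLAU and PLAT are highest under decitabine and SERPINB2 spreads widely within the treated groups.

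ANXA2R (chromosome 5, 43039233 to 43043170, minus strand) was downregulated by decitabine and lower again under the combination treatment. It measured 10.3, 9.71 and 10.6 CPM in the controls, 6.05, 5.31 and 5.04 CPM under decitabine, and 3.53, 3.08 and 3.07 CPM under the combination treatment. None of the 3 groups overlapped. Its log2 fold change from controls was -0.90 under decitabine (SE 0.13, adjusted p = 2.82e-05) and -1.66 under the combination treatment (SE 0.14, adjusted p = 1.22e-07), which left 31.7% of the control level. When libraries were scaled by their size alone, the falls of ANXA2R were smaller, at -0.65 (adjusted p = 0.000481) and -1.44 (adjusted p = 5.86e-07). Against decitabine alone, its log2 fold change in the combination treatment was -0.76 (SE 0.14, adjusted p = 0.00405). It was also a low gene, with 207, 194 and 214 estimated counts in the control libraries and 81, 70 and 72 in those of the combination treatment.

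ANXA2R shares 115 exon bases with ANXA2R-AS1 on the opposite strand. Whether the libraries kept the strand is not given in the sources used here, so reads from the shared stretch cannot be assigned to either gene. ANXA2R-AS1 itself stood at 7.37 ± 0.477 CPM in controls and 6.97 ± 0.891 CPM under decitabine (SD, n = 3), a difference that did not pass the test (log2 fold change -0.08, adjusted p = 0.682). In the combination treatment it measured 3.94 ± 0.895 CPM and was lower than under decitabine by -0.82 on the log2 scale (adjusted p = 0.00673). The step between the treatments was thus present in both ANXA2R and ANXA2R-AS1. The step from controls to decitabine passed the test for ANXA2R alone of the pair. The difference between the 2 genes was not tested. The ratio of ANXA2R to ANXA2R-AS1 counts was 1.38 ± 0.0586 in controls, 0.786 ± 0.0461 under decitabine and 0.852 ± 0.238 under the combination treatment.

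ANXA2R-OT1 is a long noncoding RNA gene on the strand of ANXA2R. Its annotated span (43013060 to 43067452) includes that of ANXA2R, though their exons share no bases. ANXA2R-OT1 gave 7.25 ± 0.297, 7.13 ± 0.489 and 5.62 ± 0.121 CPM in controls, under decitabine and under the combination treatment. It was lower in the combination treatment than in controls (log2 fold change -0.37, adjusted p = 0.0177), a call that was lost when libraries were scaled by their size alone (-0.15, adjusted p = 0.309), and the contrast of both treatments did not pass the test (adjusted p = 0.0752). Of the genes next to ANXA2R on chromosome 5, 9 chosen ones were tested, ANXA2R-AS1 and ANXA2R-OT1 among them. Decitabine raised 2 and lowered 2 of these, and the combination treatment raised 1 and lowered 4. Over all genes tested, the shares were 36.3% and 32.5% under decitabine, and 35.9% and 31.3% under the combination treatment. The neighbor raised in both treatments was CCL28, a chemokine gene, at 3.52 ± 0.759, 9.12 ± 0.652 and 7.99 ± 0.7 CPM. The other one raised by decitabine, named after its values were seen, was HMGCS1, an enzyme of sterol synthesis (log2 fold change 0.38, adjusted p = 0.00684).

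The genes whose profile over the 9 libraries came closest to that of ANXA2R were RUSF1, UBE2G2, UQCRC2, ACBD4 and NREP. Likeness was the root-mean-square difference of log2 CPM after centring each gene on its own mean, over 13809 genes with a mean of at least 2 CPM. It was 0.107 for RUSF1 and 0.127 for NREP, with a median of 0.66 over all genes compared. RUSF1 stepped from 74.1 to 41.5 and 25.9 CPM, and UBE2G2, a ubiquitin-conjugating enzyme, from 152 to 84.5 and 54.1 CPM. UQCRC2, a subunit of respiratory complex III, went from 215 to 107 and 73.9 CPM. These genes were selected for their likeness, and their values are a description.

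ANXA2 and S100A10, whose products form 1 complex, moved in opposite directions. ANXA2 (chromosome 15, 60347134 to 60402883, minus strand) measured 2544, 2783 and 2721 CPM in controls, 2063, 1977 and 1902 CPM under decitabine, and 2035, 1833 and 1820 CPM under the combination treatment. Every treated library lay below every control, and the treated groups overlapped. The log2 fold change was -0.44 (SE 0.08, adjusted p = 0.000146) under decitabine and -0.50 (SE 0.08, adjusted p = 4.6e-05) under the combination treatment. When libraries were scaled by their size alone, the falls were smaller, at -0.19 (adjusted p = 0.023) and -0.28 (adjusted p = 0.00244). Between the treatments it was -0.06 with a 95% interval from -0.23 to 0.10.

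S100A10 (chromosome 1, 151982915 to 151993859, minus strand), the light chain that binds plasminogen, measured 331, 342 and 348 CPM in controls, 494, 473 and 455 CPM under decitabine, and 489, 412 and 437 CPM under the combination treatment. Here every treated library lay above every control. S100A10 rose by 0.48 (SE 0.08, adjusted p = 6.15e-05) under decitabine and by 0.39 (SE 0.08, adjusted p = 0.000384) under the combination treatment on the log2 scale, and the difference between the treatments was -0.09 (95% interval from -0.25 to 0.07). Scaled by library size alone, the rises were 0.72 and 0.61. The ratio of S100A10 to ANXA2 counts, which does not depend on the scaling between libraries, was 0.13, 0.123 and 0.128 in controls, 0.24, 0.239 and 0.239 under decitabine, and 0.24, 0.225 and 0.24 under the combination treatment. Its control values did not overlap those of either treatment. The processed pseudogene ANXA2P2 held 0.000269 or less of the ANXA2 counts as a group mean.

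**Figure D2:**
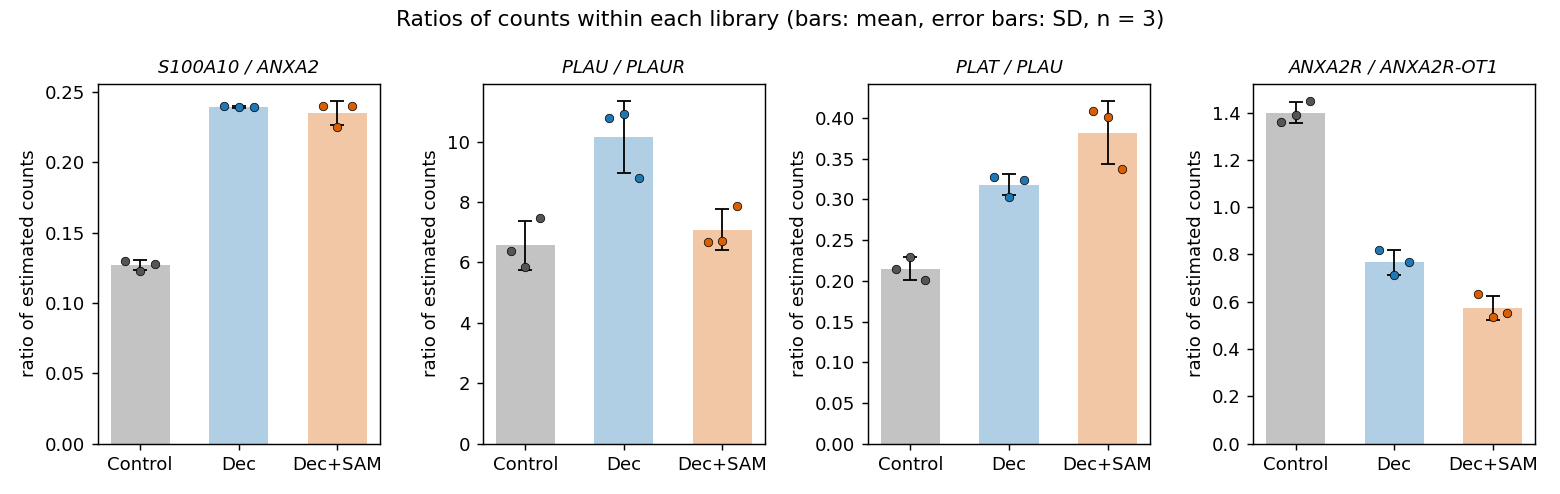
Ratios of estimated counts of pairs of genes within each library (vertical axes, starting at 0) in the 3 groups, with points for libraries, bars for means and error bars for SD of 3 libraries. The S100A10 to ANXA2 ratio averaged 0.127 in controls, 0.239 under decitabine and 0.235 under the combination treatment, and the PLAU to PLAUR ratio 6.56, 10.2 and 7.08.

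Both plasminogen activators were upregulated by decitabine, and less so by the combination treatment. PLAU (chromosome 10, 73909177 to 73917496, plus strand) measured 276, 308 and 339 CPM in controls, 567, 687 and 639 CPM under decitabine, and 384, 374 and 485 CPM under the combination treatment. The 3 groups did not overlap. Decitabine raised it to 2.05 times the control level (log2 fold change 1.04, SE 0.11, adjusted p = 1.98e-06) and the combination treatment to 1.35 times (0.43, SE 0.11, adjusted p = 0.00335). Between the treatments the log2 fold change was -0.61 (SE 0.11, adjusted p = 0.00397). Scaled by library size alone, the rise under the combination treatment was 0.65 on the log2 scale. PLAU shares 915 exon bases with C10orf55 on the opposite strand, which held 181, 413 and 337 counts summed over the 3 libraries of controls, decitabine and combination treatment.

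PLAT (chromosome 8, 42174718 to 42207709, minus strand) measured 59, 70.6 and 67.9 CPM in controls, 186, 208 and 207 CPM under decitabine, and 156, 150 and 164 CPM under the combination treatment, again without overlap. It had the larger relative rise of the pair, to 3.04 times the control level under decitabine (adjusted p = 1.01e-09) and 2.38 times under the combination treatment (adjusted p = 1.09e-08). The contrast of both treatments was -0.35 on the log2 scale (SE 0.08, adjusted p = 0.00987), and this call was lost without decitabine library 2 (adjusted p = 0.0592) or combination library 2 (adjusted p = 0.0668). The ratio of PLAT to PLAU counts was 0.215 ± 0.0143 in controls, 0.318 ± 0.0133 under decitabine and 0.382 ± 0.0387 under the combination treatment (SD, n = 3).

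PLAUR (chromosome 19, 43646095 to 43670547, minus strand), the urokinase receptor, changed less than its ligand. It measured 43.1, 52.8 and 45.4 CPM in controls, 52.7, 63 and 72.7 CPM under decitabine, and 57.5, 55.9 and 61.7 CPM under the combination treatment. The lowest decitabine library overlapped the controls. The log2 fold change was 0.42 (SE 0.11, adjusted p = 0.00383) under decitabine and 0.31 (SE 0.11, adjusted p = 0.0224) under the combination treatment, and the latter was lost without control library 1 (adjusted p = 0.102), control library 3 (adjusted p = 0.0791) or combination library 3 (adjusted p = 0.0768). With library size as the scaling, the values were 0.66 and 0.53. Between the treatments the interval ran from -0.34 to 0.13. The ratio of PLAU to PLAUR counts was 6.39, 5.84 and 7.46 in controls, 10.8, 10.9 and 8.79 under decitabine, and 6.67, 6.7 and 7.86 under the combination treatment, so that the decitabine libraries stood above all others.

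The 3 serpins behaved differently from each other. SERPINE2 (chromosome 2, 223975045 to 224039318, minus strand), which encodes protease nexin-1, an inhibitor of urokinase and thrombin, was the 1 gene of the 9 that passed no test. Its levels of 92.7, 88.8 and 82.4 CPM in controls, 74.7, 86.7 and 89.7 CPM under decitabine, and 90.6, 86.5 and 92.9 CPM under the combination treatment overlapped throughout. The 95% intervals of its log2 fold changes ran from -0.24 to 0.10, from -0.14 to 0.20 and from -0.06 to 0.27 for decitabine, the combination treatment and the difference between them. With libraries scaled by their size alone its rise under the combination treatment was called (0.25, adjusted p = 0.0135).

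SERPINB5 (chromosome 18, 63476958 to 63505085, plus strand), which encodes maspin, was downregulated to a similar level by both treatments. It measured 162, 135 and 140 CPM in controls, 109, 101 and 88.4 CPM under decitabine, and 109, 105 and 95.9 CPM under the combination treatment. All treated libraries lay below all controls. The log2 fold changes were -0.55 (SE 0.09, adjusted p = 9.01e-05) and -0.49 (SE 0.09, adjusted p = 0.000249), and the interval of the difference between the treatments ran from -0.14 to 0.25. Scaled by library size alone, the falls were -0.31 (adjusted p = 0.00598) and -0.27 (adjusted p = 0.012).

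SERPINB2 (chromosome 18, 63871692 to 63903888, plus strand), which encodes plasminogen activator inhibitor type 2, had the largest fold changes and the widest spread. It measured 1.49, 2.25 and 2.02 CPM in controls, 18.8, 36.2 and 68.9 CPM under decitabine, and 7.36, 12.7 and 44 CPM under the combination treatment. Every treated library lay above every control, and the treated groups overlapped. Each combination library lay below the decitabine library of the same number, and both treated groups climbed from library 1 to library 3. The log2 fold change was 4.42 under decitabine (SE 0.99, 95% interval from 2.02 to 6.82, adjusted p = 0.00687) and 3.47 under the combination treatment (SE 1.01, 95% interval from 1.03 to 5.91, adjusted p = 0.0209). The latter call was lost without control library 1 (adjusted p = 0.0693), 2 (adjusted p = 0.0584) or 3 (adjusted p = 0.0626), and without combination library 3 the log2 fold change was 2.38. The coefficient of variation was 61.6% under decitabine and 92.7% under the combination treatment, above those of 99.7% and 99.8% of the genes with a mean of at least 1 CPM. SERPINB2 shares 547 exon bases with another gene model on its strand, whose counts were not used here.

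**Figure D3:**
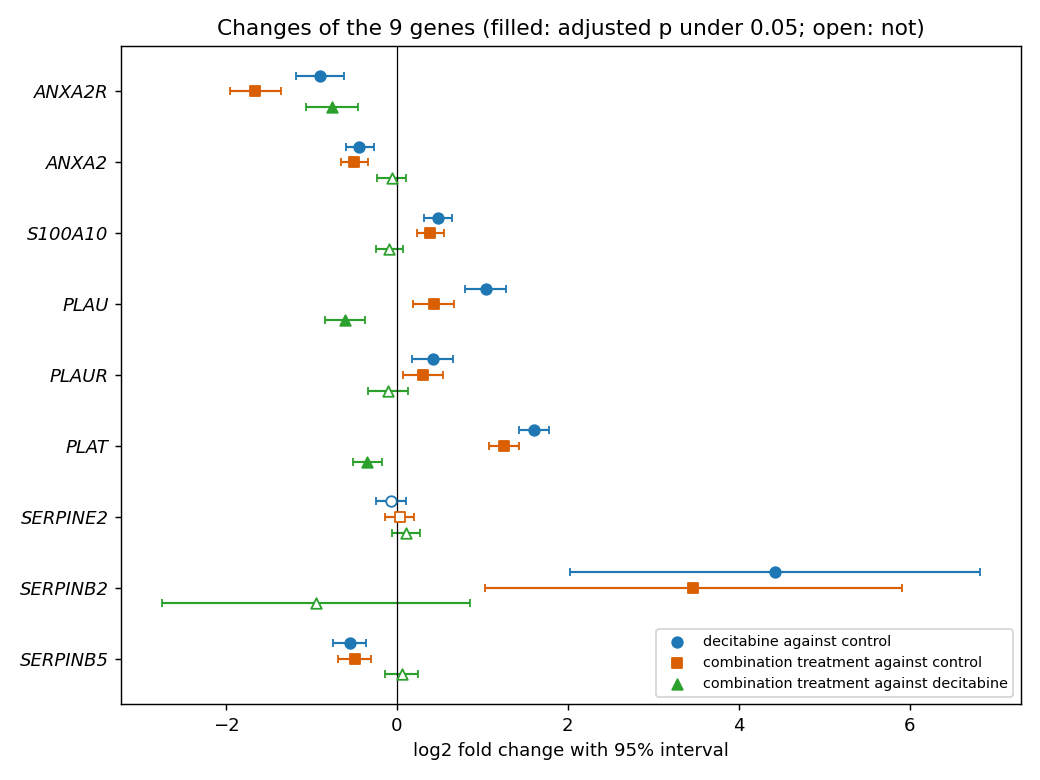
Log2 fold changes of the 9 genes with 95% intervals (horizontal axis) for decitabine against controls, the combination treatment against controls and the combination treatment against decitabine. Filled points passed an adjusted p of 0.05 and open points did not. The intervals of SERPINB2 are the widest, and ANXA2R is the lowest of the 9 in both comparisons with controls.

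Per kilobase of annotated exon, the order of the 9 genes in controls ran from S100A10 (336 ± 8.44 CPM per kilobase, SD, n = 3) and ANXA2 (232) through PLAU (104), SERPINB5 (38.9), PLAUR (10.6), SERPINE2 (9.82) and PLAT (8.48) to ANXA2R (4.56 ± 0.196) and SERPINB2 (0.701 ± 0.143). The ranges of PLAUR and SERPINE2 overlapped, and no other neighbors in this order did. Under decitabine PLAU (214) stood above ANXA2 (171) without overlap, and SERPINB5 (26.6) and PLAT (25.8) overlapped. The wide range of SERPINB2 (6.85 to 25.1) overlapped those of SERPINB5, PLAT, PLAUR and SERPINE2. In the same group ANXA2R was the lowest of the 9 at 2.45 ± 0.233 CPM per kilobase. Under the combination treatment ANXA2 (164) and PLAU (141) overlapped in range, and ANXA2R was again the lowest at 1.44 ± 0.117 CPM per kilobase. These ranks depend on the length used, and with the longest or the canonical transcript in its place 1 of the 9 genes held its rank in all 3 groups. With either of these lengths ANXA2 ranked above PLAU under decitabine.

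The other genes of the pathway are given from lists of its components, with levels as mean ± SD of 3 libraries in the order controls, decitabine, combination treatment, and with rose and fell for an adjusted p under 0.05 against controls. The lists were drawn up with earlier results of these data known. Of 67 tested genes on them, the neighbors of ANXA2R included, decitabine raised 34 and lowered 19. The combination treatment raised 31 and lowered 21. Over all genes tested, the shares were 36.3% and 32.5% under decitabine, and 35.9% and 31.3% under the combination treatment. Plasminogen itself was barely detected, with at most 5.33 estimated counts of PLG in a library, and was not tested. PLGRKT, a membrane receptor for plasminogen, fell from 8.46 ± 0.383 CPM in controls to 5.27 ± 0.338 CPM under decitabine (log2 fold change -0.68, adjusted p = 0.000557) and to 3.87 ± 0.546 CPM under the combination treatment (-1.13, adjusted p = 8.43e-06). The contrast of both treatments was -0.44 (adjusted p = 0.0535). Of 9 fits without 1 library it passed the test in 1, without combination library 3 (-0.53, adjusted p = 0.0339). Of 8 other alternatives it passed in 1, with the replicate number as a block (-0.45, adjusted p = 0.0412). In all, 3 of 6 listed plasminogen-binding genes could be tested. The other members tested, named after their values were seen, were ENO1, the glycolytic enzyme enolase, which fell from 3958 ± 107 to 1623 ± 95.3 and 1658 ± 142 CPM (log2 fold changes -1.29 and -1.26), and KRT8, a keratin that binds plasminogen, which rose (1.14 and 0.80) from 120 ± 11 to 264 ± 9.63 and 208 ± 7.94 CPM.

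Of 6 other inhibitors of plasminogen activators and plasmin 3 were tested, and SERPINI1, which encodes neuroserpin, an inhibitor of tPA, measured 5.88 ± 0.891, 15.9 ± 0.988 and 21.1 ± 2.27 CPM and rose in both treatments.

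Among 9 tested partners of the urokinase receptor, decitabine raised 6 and lowered 0, and the combination treatment raised 6 and lowered 1, with medians of 1.24 and 1.22 on the log2 scale. Between the treatments 1 was higher and 3 were lower in the combination treatment, beside 7.67% and 8.02% of all genes tested. VTN, which encodes the matrix protein vitronectin, held 0, 3 and 2 counts in controls, 339, 420 and 406 under decitabine, and 178, 222 and 239 under the combination treatment. It was lower in the combination treatment than under decitabine (log2 fold change -0.83, adjusted p = 0.00441). ITGB3, a vitronectin-binding integrin subunit, followed the same order at 2.57 ± 0.159, 14.2 ± 0.613 and 7.30 ± 2.18 CPM, with a contrast of both treatments of -0.96 (adjusted p = 0.0029). ITGA3, an integrin subunit named after its values were seen, was the partner that fell under the combination treatment (log2 fold change -0.75, adjusted p = 4.19e-05), at 448 ± 25.2 CPM in controls, 504 ± 23.2 CPM under decitabine and 267 ± 51.8 CPM under the combination treatment. LAMB3, a laminin chain, measured 129 ± 12.1, 401 ± 123 and 382 ± 95 CPM.

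Of 11 tested membrane-linked and plasma serine protease activators and their regulators, decitabine raised 7 and lowered 3, and the combination treatment raised 8 and lowered 2. F3, the tissue factor that starts coagulation, rose from 2.09 ± 0.252 to 51.2 ± 14.3 and 38.1 ± 15.3 CPM. ST14, which encodes the protease matriptase, measured 0.363 ± 0.242, 3.73 ± 1.19 and 4.49 ± 1.51 CPM, and its inhibitor SPINT1 17.6 ± 2.06, 154 ± 8.64 and 143 ± 2.36 CPM. TFPI2, a protease inhibitor of the Kunitz type, went from 27.8 ± 2.80 to 197 ± 48.0 and 226 ± 32.5 CPM. HGF, the plasminogen-like growth factor, held 0, 1 and 1 counts in controls and 22, 39 and 24 counts under the combination treatment. Under decitabine HGF held 35 counts summed over the 3 libraries. Of 6 endocytic receptors for complexes of activators and inhibitors, decitabine raised 3 and lowered 1 and the combination treatment raised 2 and lowered 2, among them MRC2, a partner of uPAR in collagen uptake, at 8.71 ± 0.759, 29.1 ± 4.28 and 29.9 ± 4.57 CPM.

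Of the listed relatives that were tested, most annexins fell and most S100 genes rose in treated cells. Over all genes tested, 32.5% fell and 36.3% rose under decitabine, and 31.3% and 35.9% under the combination treatment. Of 9 other annexins tested, 7 fell and 2 rose in each treatment, with median log2 fold changes of -0.65 and -0.79. ANXA10 fell from 110 ± 6.39 to 27.1 ± 1.5 and 29.5 ± 2.94 CPM, while ANXA9 rose from 0.314 ± 0.124 to 1.03 ± 0.0956 and 0.692 ± 0.341 CPM, the latter call being lost in DESeq2 (adjusted p = 0.0687), in voom and limma (adjusted p = 0.08) and without single libraries. Of 11 other S100 genes tested, 9 rose and 2 fell under decitabine and 8 rose and 1 fell under the combination treatment, with medians of 1.70 and 1.35. S100P rose from 12.3 ± 2.65 to 133 ± 29.0 and 174 ± 6.25 CPM, S100A14 from 0.415 ± 0.163 to 8.24 ± 1.51 and 8.65 ± 0.955 CPM, S100A2 from 17.9 ± 1.58 to 67.7 ± 7.78 and 57.8 ± 4.30 CPM, and S100A3 from 3.66 ± 0.177 to 25.4 ± 3.52 and 23.7 ± 2.08 CPM. S100A5 was low throughout, at 0.547 ± 0.181, 1.79 ± 0.0680 and 1.40 ± 0.0511 CPM. Of 6 other tested serpins of clades B and E, decitabine raised 3 and lowered 2, and the combination treatment raised 2 and lowered 2. SERPINB7 rose from 14.6 ± 3.39 to 61.4 ± 12.3 and 58.6 ± 11.3 CPM. The single annexin A2 pseudogene that could be tested passed no test.

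**Figure D4:**
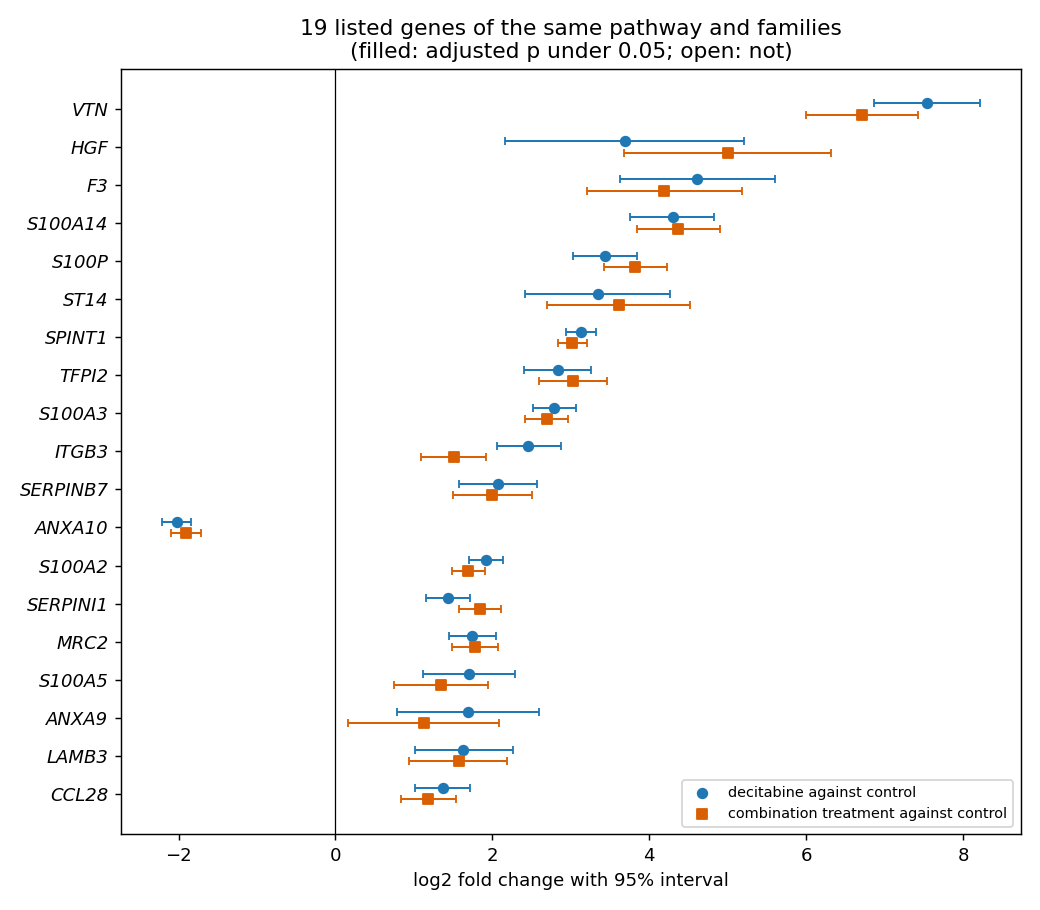
Log2 fold changes with 95% intervals (horizontal axis) of 19 listed genes outside the 9 that are among those with the largest changes, for both treatments against controls. Filled points passed an adjusted p of 0.05 and open points did not. VTN and HGF held 5 and 2 counts in all controls together, so the position of their points depends on the prior count, and ANXA10 is the 1 gene of the 19 to the left of 0 against controls.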

How the data were processed

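RNA of 9 PC-3 libraries was sequenced on the BGISEQ-500 platform. The authors removed low-quality reads with Trim Galore 0.6.4, counted the rest with kallisto and related them to GRCh38.p13, and the submitters' processing notes also name edgeR 3.17. What they deposited and what was used here were unnormalized estimated counts for each Ensembl gene. The deposited log2 CPM values equal those of the same counts with library size as the scaling, and they were not used. The labels gave the groups and the study's methods the doses.

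Counts were rounded and tested with edgeR 4.0.16 in R 4.3.3 (filterByExpr, TMM, robust quasi-likelihood test, 1 mean per group over 9 libraries, Benjamini-Hochberg adjustment over 18532 genes, threshold 0.05). The fit was first run on simulated counts for decitabine against controls, with few changed genes, balanced between directions, and 1 fixed dispersion. In these data most genes were called against controls, so that run does not test the scaling between libraries. Totals of 21934307 to 22489684 counts limit the low genes. No library was a copy of another, with a chi-square per degree of freedom of 5.86 or more between replicates. The members and gene lists were chosen with earlier results of these data known. The text names the 9 members, PLG, PLGRKT, the 20 listed genes with the largest change (adjusted p under 0.05, absolute log2 fold change of at least 1 against controls, mean of at least 1 CPM in a group) and the 5 profiles closest to ANXA2R. Some results on single genes that this rule names are left out of the text. Alternatives were DESeq2 1.42.0 and its size factors, library size alone, voom and limma 3.58.1, other filters, 6 libraries per comparison, a replicate block, a fold threshold, other gene lengths and leaving out each library. Gene positions and lengths are from GENCODE release 44. Figures were drawn with matplotlib 3.10.9.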

Additional observations from a re-analysis of the deposited data

How the results depend on the processing

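Of 459 values of the 9 genes under the alternatives, 450 kept their side of the threshold, 0 called values changed sign, and the other 9 are those of SERPINE2, PLAUR, SERPINB2 and PLAT given with these genes. Of 1271 values of 25 other named genes, 1243 kept their side and 0 called values changed sign. Requiring an absolute log2 fold change of at least 1 left 3 of the 9 genes under decitabine (5347 of all genes), 3 under the combination treatment (5178) and 0 between the treatments (397). Without 1 library, between 8 and 8, 6 and 8, and 2 and 3 of the 9 genes were called in the 3 comparisons, and of all genes 11956 to 13160, 11739 to 12751, and 861 to 4063. The last count was 861 without combination library 2, 1004 without decitabine library 2, 1364 without combination library 1 and 1783 without decitabine library 1, against 2908 with all libraries. Scaling by library size alone shifted the log2 median over all genes tested to 0.281 (from 0.035) under decitabine and to 0.268 (from 0.048) under the combination treatment. Calls then split into 8849 up and 3746 down in place of 6729 and 6030, and into 8695 and 3857 in place of 6647 and 5799, while the 9 genes gave 5 up and 3 down, and 6 up and 3 down. With the longest transcript as length 1 of the 9 genes held its rank in each group, and with the canonical transcript, an alternative chosen after seeing the data, also 1; the ranks change because the lengths do. The same alternatives for the other named genes were likewise added after seeing the data.

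Libraries with the same number did not deviate together against controls (correlations from -0.017 to 0.069), and between the treatments the correlations were 0.233, 0.036 and 0.229, each library correlating best with its own number. The labels do not say what the numbers mark. They were not taken as pairs in the main test, which thus leaves out the likeness of same-numbered libraries between the treatments. With the replicate block 12945, 12673 and 3656 of all genes were called, and 8, 8 and 3 of the 9 genes. Depth limits ANXA2R, with 70 counts in its lowest library, and SERPINB2 in controls, where single libraries held few counts.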
